A study of Homo sapiens with 6 samples.

Results

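The endoplasmic reticulum (ER) chaperones described here are 10 genes, HSPA5, HSP90B1, CALR, CANX, PDIA3, PDIA4, PDIA6, DNAJB9, SDF2L1 and SERPINH1, taken by symbol from a table of 27788 genes. They were measured by poly-A RNA sequencing of BJ, a foreskin fibroblast cell line of human origin, 8 days into reprogramming by lentiviral OCT4, SOX2, KLF4 and MYC. A cell sorter had divided the cells by the surface proteins CD13 and CD201 into double-negative cells (neither protein), CD201-only cells (CD13 negative, CD201 positive) and double-positive cells, and each group has 2 libraries. All 3 groups carried the same pair of polycistronic constructs, O2S and K2M, and had moved from serum to a stem cell medium that contains beta-mercaptoethanol, a reducing agent. Uninfected and unsorted cells were not analysed here, so every difference is between sorted fractions of one infected culture type. The labels do not say whether the 2 libraries of a group came from separate cultures, so the p-values measure the spread between libraries, which may be technical.

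Secreted and membrane proteins fold in the ER. HSPA5 (BiP) is the ER Hsp70 and HSP90B1 (GRP94) the ER Hsp90. CALR and CANX (calreticulin and calnexin) hold newly made glycoproteins through their sugars. The PDIA enzymes form and rearrange disulfide bonds, DNAJB9 and SDF2L1 work with BiP, and SERPINH1 (HSP47) binds the collagen triple helix. When unfolded protein builds up, the sensors ATF6, IRE1 (gene ERN1) and PERK (gene EIF2AK3) raise many of these transcripts. Fibroblasts are known for a heavy load of secreted collagen, so the chaperones are set here against the collagen chains.

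Promoter sequences show which of the genes carry the ER stress response element, ERSE, the site known to bind ATF6 together with NF-Y. RefSeq windows on GRCh38.p14, running from 250 bases before to 50 after each start, were found for 9 of the 10 genes, and PDIA3 had none. ERSE was searched as CCAAT and CCACG with any 9 bases between them, on either strand, and was in 27 of 35116 windows (0.0769%). Those windows included ones of 5 of the 10 chaperone genes. Their matches are shown 5′ to 3′ on the gene's strand, with the motif in capitals. A motif on the opposite strand reads CGTGG first. CANX and PDIA6 have another start upstream, so only a short stretch is shown for them.
HSPA5 (chr9:125241361-125241439, minus strand): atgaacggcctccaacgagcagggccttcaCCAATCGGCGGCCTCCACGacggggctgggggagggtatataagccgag
HSP90B1 (chr12:103930186-103930369, plus strand): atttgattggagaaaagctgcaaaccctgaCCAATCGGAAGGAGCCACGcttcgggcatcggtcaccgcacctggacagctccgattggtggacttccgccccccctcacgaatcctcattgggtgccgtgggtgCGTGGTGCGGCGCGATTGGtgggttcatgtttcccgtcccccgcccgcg
CALR (chr19:12938359-12938432, plus strand): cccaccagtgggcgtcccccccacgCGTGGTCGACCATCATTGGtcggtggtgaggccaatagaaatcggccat
CANX (chr5:179698773-179698801, plus strand): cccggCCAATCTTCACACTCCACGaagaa
PDIA6 (chr2:10812848-10812876, minus strand): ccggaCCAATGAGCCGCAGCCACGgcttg

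HSP90B1 held 2 matches, and the other genes 1 in the window shown. SDF2L1 held the related element ERSE-II, searched as ATTGG and CCACG with any 1 base between them, which was in 19 windows (0.0541%). SERPINH1 held neither. Its window held a heat shock element, the kind of site bound by heat shock factors, searched as the units GAA, TTC and GAA with any 2 bases between neighbours and found in 172 windows (0.49%). The capitals mark these motifs, both on the opposite strand. The ERSE-II and ERSE letters overlap in part, since both contain CCACG.
SDF2L1 (chr22:21642084-21642154, plus strand): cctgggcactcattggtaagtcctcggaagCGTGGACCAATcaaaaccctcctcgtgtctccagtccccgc
SERPINH1 (chr11:75562147-75562219, plus strand): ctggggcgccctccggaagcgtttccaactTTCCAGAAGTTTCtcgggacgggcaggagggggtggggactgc

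PDIA4 and DNAJB9 held none of these 3 motifs. The letters TGACGTGG, the core of the element bound by XBP1, were in 256 windows (0.729%) and in none of the 9 chaperone genes with a window. A match is only a match of letters, and no match says nothing about whether a factor acts on the gene.

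The sort was visible in the transcripts of its own markers. ANPEP (CD13) averaged 35.96 FPKM in double-negative cells, 28.89 in CD201-only cells and 155.3 in double-positive cells, and PROCR (CD201) averaged 17.31, 47.45 and 51.93 in the same order. FPKM, the fragments of a gene scaled by its length and by the size of the library, allows levels to be compared between genes. The FPKM of a library summed to between 489152 and 521352. Relative depth ran from 0.732 to 1. It was estimated from the commonest ratio between libraries of values under 1 FPKM, assumed to be 1 fragment in each. Absolute depth is unknown, so values carry no counting interval. Fibroblast markers were present in every library, with 11 genes summing to 4465 and 4472, 5402 and 5399, and 6384 and 6344 FPKM in the 3 groups in the same order, most of it THY1, VIM and S100A4. Of the 10 of these genes tested, 7 were lower and 3 higher in double-negative against double-positive cells (median -0.82). The 3 higher were THY1 (1642 against 1370 FPKM), POSTN (54.97 against 29.6) and TWIST1 (30.79 against 26.12). PDGFRB, a mesenchymal growth factor receptor, averaged 22.12, 20.41 and 134.7 FPKM, and LUM (lumican) and DCN (decorin), matrix proteoglycans, were under 4 FPKM in each group mean. Epithelial markers (6 genes) summed to 3084 and 3072, 4090 and 4018, and 2108 and 2041 FPKM, nearly all from KRT8 and KRT18, and pluripotent cell markers (9 genes) to 202.9 and 203.0, 128.7 and 129.4, and 60.62 and 63.44 FPKM. Genes that respond to cell handling (8, such as JUN, JUNB and IER2) summed to 252.3 and 249.7, 306.6 and 304.3, and 466.4 and 456.2 FPKM. Keratinocyte (5 genes, 6.6 to 61.33), endothelial (6 genes, 17.48 to 29.23) and blood cell markers (6 genes, 17.61 to 90.47) were low. The T cell marker CD3E was listed at 0 in all 6 libraries, while PTPRC, the pan-leukocyte marker, reached at most 0.886 FPKM. Most of the blood cell sum was CD68, at 11.33, 8.1 and 54.3 FPKM, and CD14, at 19.78, 8.937 and 32.91 FPKM. Of 3 blood cell markers tested, 1 was higher and 2 lower in double-negative against double-positive cells. These lists moved with the groups, and their part in the chaperone results was not tested. In bulk samples, fewer cells of a type and less RNA per cell cannot be told apart.

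A gene was tested if its 6 libraries averaged 1 FPKM or more, which 12210 genes did, among them all 10 chaperones. Their levels spanned a wide range. CALR was the highest at a mean of 938.8 FPKM over the 6 libraries, rank 66 of all genes, followed by SERPINH1 (705.8), PDIA6 (338.5), PDIA4 (263.8) and HSPA5 (258.3). HSP90B1 (186.8), CANX (168.9), PDIA3 (98.08) and SDF2L1 (95.96) were lower, and DNAJB9 was far below them at 3.306 FPKM. Some neighbours in this order were not apart: PDIA4 and HSPA5 differed by less than the SD of HSPA5 in double-negative and CD201-only cells, and HSP90B1 and CANX by less than either SD in double-positive cells. PDIA3 was above SDF2L1 in double-negative and double-positive cells and below it in CD201-only cells. CALR alone was 29.41% to 32.76% of the summed level of the 10 genes in a library.

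**Figure D1:**
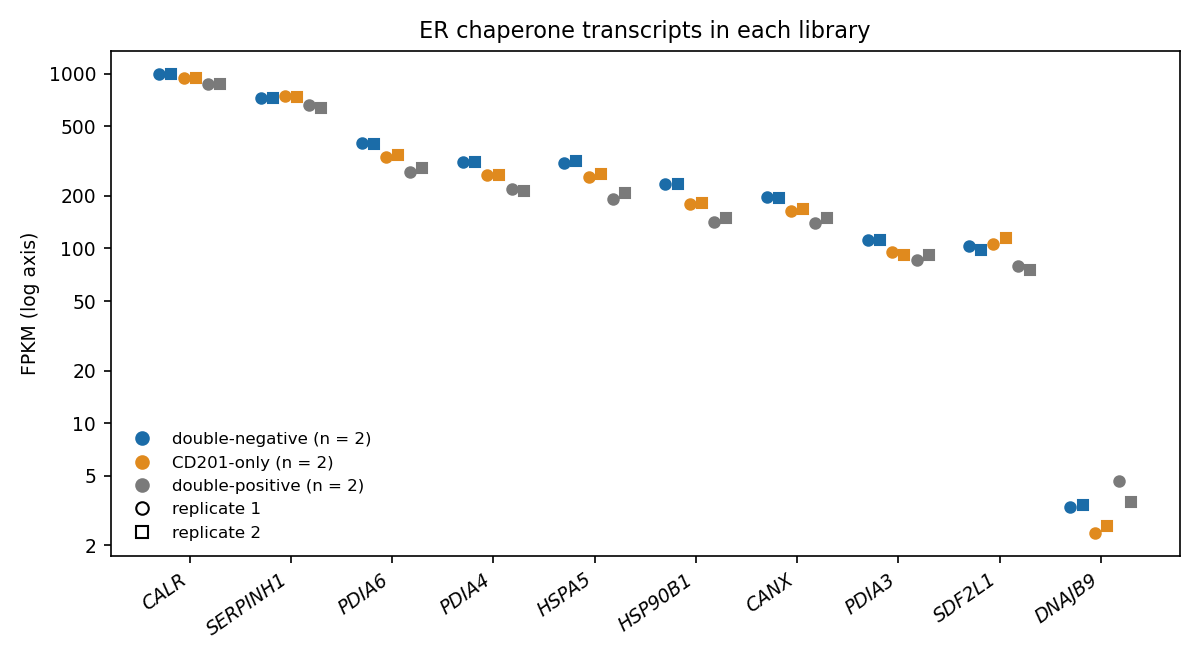
FPKM of the 10 ER chaperone genes in each of the 6 libraries, on a log axis, with genes ordered by their mean level. Points are single libraries (circle replicate 1, square replicate 2) coloured by sorted group. In 6 genes, such as PDIA6 and HSP90B1, both double-negative libraries lie highest and both double-positive libraries lowest, and DNAJB9 lies far below the rest.

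The central Hsp70 and Hsp90 of the ER were graded across the sort. HSPA5 was at 310.2 and 316.0 FPKM in the double-negative libraries, 254.8 and 267.5 in the CD201-only libraries and 192.1 and 209.0 in the double-positive libraries. The 3 groups did not overlap, and double-negative cells were highest. On the scale log2(FPKM + 1), limma put HSPA5 0.64 higher in double-negative than in double-positive cells (SE 0.0431, adjusted p = 1.62e-05), a ratio of means of 1.561. The rise was 0.38 in CD201-only against double-positive cells (adjusted p = 0.000268) and 0.26 in double-negative against CD201-only cells (adjusted p = 0.00323).

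HSP90B1, which folds a narrower set of clients such as integrins and Toll-like receptors, was at 235.3 and 232.3 FPKM in double-negative, 180.3 and 181.6 in CD201-only and 141.4 and 149.7 in double-positive cells. It showed the same order with no overlap. Its log2 change between double-negative and double-positive cells, 0.68 (SE 0.0311, adjusted p = 2.54e-06, ratio 1.606), had the largest estimate of the 10 genes. The steps on either side of CD201-only cells were 0.31 (adjusted p = 0.000137) and 0.37 (adjusted p = 0.000141). HSP90B2P, a pseudogene copy of HSP90B1, was listed at 0.1494 to 0.4251 FPKM, so few reads were assigned to it.

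The lectin chaperones shared that order, with smaller differences for the soluble one. CANX, the membrane-bound form, was at 196.1 and 195.2 FPKM in double-negative, 164.7 and 168.9 in CD201-only and 139.8 and 148.5 in double-positive cells. CANX rose by 0.44 in double-negative against double-positive cells (SE 0.033, adjusted p = 2.76e-05, ratio 1.358). CALR, the soluble form and also a store of ER calcium, was at 1000.4 and 994.0, 940.3 and 943.5, and 877.3 and 877.3 FPKM in the same order of groups. CALR was the most abundant of the 10 and changed by little: 0.19 (SE 0.018, adjusted p = 0.000102, ratio 1.137) between double-negative and double-positive cells. Its smaller differences depended on the processing. The 0.10 rise in CD201-only against double-positive cells (adjusted p = 0.00235) was 0.02 after median-ratio rescaling of the libraries (adjusted p = 0.461). The 0.08 rise in double-negative against CD201-only cells (adjusted p = 0.011) was not called when any 1 of the double-negative or CD201-only libraries was left out (adjusted p = 0.0575 to 0.0941).

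Of the disulfide isomerases, PDIA4 and PDIA6 were graded like HSPA5 and PDIA3 was not. PDIA6 was at 401.7 and 393.5 FPKM in double-negative, 331.6 and 341.2 in CD201-only and 275.3 and 287.5 in double-positive cells. PDIA4 was at 310.6 and 313.6, 261.7 and 263.3, and 219.2 and 214.2 FPKM. In both genes the 3 groups were apart, and the rise between double-negative and double-positive cells was 0.50 for PDIA6 (SE 0.029, adjusted p = 8e-06) and 0.52 for PDIA4 (SE 0.0224, adjusted p = 1.88e-06). PDIA3 (ERp57), which works on glycoproteins held by CANX and CALR, was at 111.3 and 111.8, 94.8 and 92.26, and 86.02 and 92.27 FPKM. Its CD201-only and double-positive libraries overlapped, so only the double-negative cells stood apart, with 0.32 (SE 0.0372, adjusted p = 0.000242) over double-positive and 0.25 (adjusted p = 0.00197) over CD201-only cells. The difference between CD201-only and double-positive cells was 0.07 (95% interval -0.02 to 0.16, adjusted p = 0.149), and without double-positive replicate 2 it was 0.12 (adjusted p = 0.0185). PDIA3P1, a pseudogene of PDIA3, was listed at 18.15 to 28.29 FPKM, and how the authors' counting shared reads between the copies was not stated in the labels.

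SDF2L1 and DNAJB9, which work with BiP, did not follow the grade. SDF2L1, a stress-induced ER protein, was at 102.6 and 98.21 FPKM in double-negative, 106.2 and 114.4 in CD201-only and 79.01 and 75.32 in double-positive cells. Both CD201-only libraries were the highest. SDF2L1 rose by 0.51 in CD201-only (SE 0.0445, adjusted p = 7.02e-05, ratio 1.43) and by 0.38 in double-negative cells (adjusted p = 0.000272) against double-positive cells. Between double-negative and CD201-only cells the change was -0.13 (adjusted p = 0.0518), at the edge of the threshold. It was called lower after median-ratio rescaling (-0.17, adjusted p = 0.0243), and without CD201-only replicate 1 (-0.19, adjusted p = 0.0326) or either double-positive library (adjusted p = 0.0498 and 0.0495).

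DNAJB9 (ERdj4), a J-domain partner of BiP that also restrains IRE1, was at 3.314 and 3.406 FPKM in double-negative, 2.364 and 2.588 in CD201-only and 4.643 and 3.521 in double-positive cells. CD201-only cells were lowest, and the double-positive libraries differed more from each other than in any other chaperone, with a coefficient of variation of 19.44%. DNAJB9 fell by 0.54 in CD201-only against double-positive cells (SE 0.112, adjusted p = 0.00499), on a scale that understates changes at so low a level. The change in double-negative cells was -0.21 (95% interval -0.48 to 0.05, adjusted p = 0.133), and without double-positive replicate 2 it was -0.37 (adjusted p = 0.0136). Double-negative over CD201-only cells gave 0.33 (adjusted p = 0.0564), and 0.33 without double-positive replicate 1 or 2 (adjusted p = 0.0179 and 0.0173).

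SERPINH1, the chaperone dedicated to collagen, was at 729.0 and 721.7 FPKM in double-negative, 746.4 and 734.5 in CD201-only and 663.0 and 640.3 in double-positive cells. The double-positive libraries were the lowest, although those cells held by far the most collagen transcript. SERPINH1 rose by 0.15 in double-negative (SE 0.0237, adjusted p = 0.000996, ratio 1.113) and by 0.18 in CD201-only cells (adjusted p = 0.000508, ratio 1.136). The median change of all tested genes was 0.11 and 0.08 in these comparisons, and the rises depended on scaling. After quantile normalization they were 0.04 (adjusted p = 0.257) and 0.05 (adjusted p = 0.131), and after median-ratio rescaling the double-negative rise was 0.03 (adjusted p = 0.323), while the CD201-only rise was still called. Double-negative and CD201-only cells differed by -0.03 (95% interval -0.09 to 0.03, adjusted p = 0.364).

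**Figure D2:**
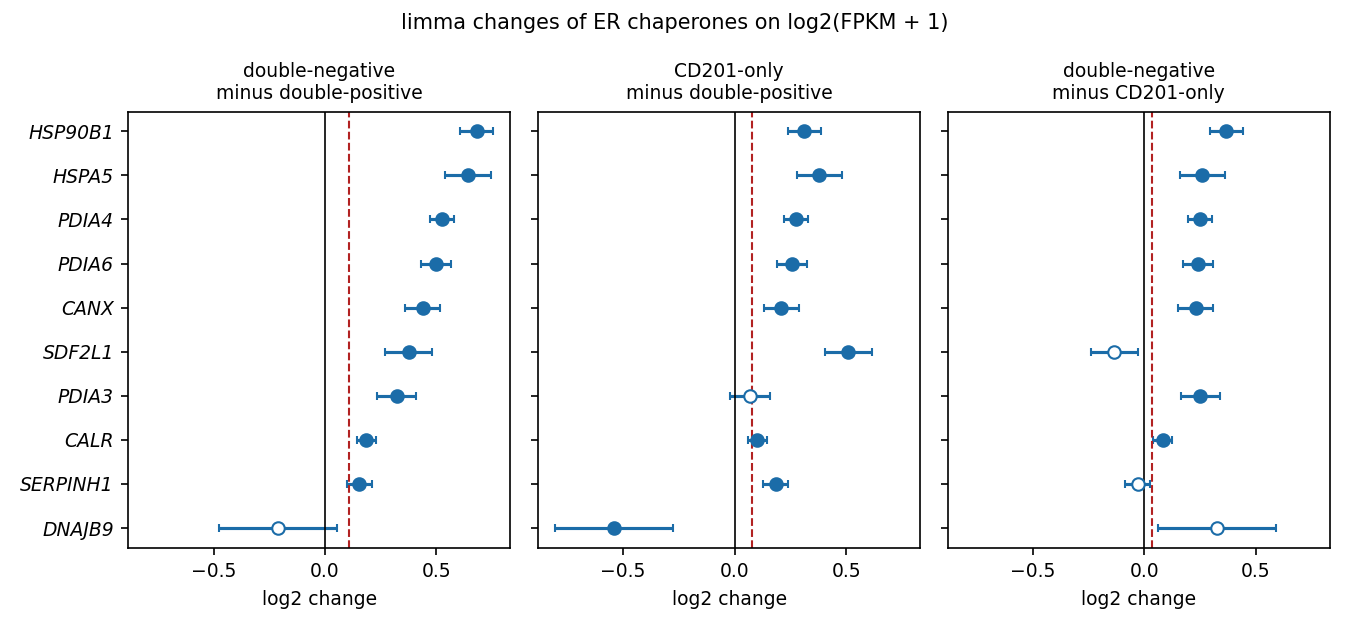
limma log2 changes of the 10 ER chaperones in the 3 comparisons, with 95% intervals from 6 libraries, 2 in each group. Filled points passed an adjusted p of 0.05 and open points did not, and the dashed line is the median change of all 12210 tested genes. HSP90B1 (0.68) and HSPA5 (0.64) lead in the left panel, SDF2L1 (0.51) leads in the middle one, and SERPINH1 lies close to the dashed line in the left panel.

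Counted over the 10 genes, 9 were called higher and 0 lower in double-negative against double-positive cells, where limma called 42.1% of all tested genes higher and 24.5% lower. Counted at an unadjusted limma p under 0.05, the number lower was still 0. In all, 66.6% of tested genes were called. In CD201-only against double-positive cells 8 were higher and 1 lower, against 35.8% and 22.9% of all genes (58.7% in all). In double-negative against CD201-only cells 7 were higher and 0 lower, against 21.5% and 16.5% (37.9% in all), and at an unadjusted limma p under 0.05 the number lower was 1, SDF2L1. Libraries that did not overlap were found for 9 genes higher and 1 lower (DNAJB9) in double-negative against double-positive cells, where 52.3% and 31.0% of all tested genes did not overlap. For CD201-only against double-positive cells they were found for 8 and 1, beside 48.3% and 31.0% of all genes, and for double-negative against CD201-only cells for 8 and 2, beside 42.2% and 29.7%. Leaving out any 1 double-negative or CD201-only library lowered the number of genes called in that last comparison, which was 4632 with all 6 libraries. The median log2 change of the 10 genes was 0.41, 0.23 and 0.25 in the 3 comparisons, and that of all tested genes 0.11, 0.08 and 0.04. The first 2 comparisons share the double-positive libraries. Median-ratio rescaling moved the median of all genes in double-negative against double-positive cells from 0.11 to 0.0035 and the share of higher calls from 63.17% to 48.34%. The shares moved from 60.99% to 48.11% and from 56.56% to 47.09% in the other comparisons. Under that rescaling the 10 chaperones had 8 higher and 1 lower, 7 and 1, and 6 and 1 in the 3 comparisons, with medians of 0.29, 0.15 and 0.21. Of all 12210 tested genes, 3649 were then called higher and 3899 lower, 3228 and 3481, and 2163 and 2430. By limma's F test all 10 differed among the groups, as did 73.0% of all genes. In HSPA5, HSP90B1, CALR, CANX, PDIA4 and PDIA6, both double-negative libraries exceeded both CD201-only libraries, which exceeded both double-positive libraries, an order found in 18.6% of all tested genes. The ERSE letters were in the windows of 5 of these 6 genes, PDIA4 being the exception. The motif was chosen after values were seen, and its part in this order was not tested. Of 10 tested genes with ERSE outside the members, 1 was called higher, 2 lower and 7 neither in double-negative against double-positive cells.

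Against double-positive cells, most collagen chains moved the opposite way. Of 18 collagen chain genes, 2 were called higher and 16 lower in double-negative against double-positive cells (median -1.58). In CD201-only against double-positive cells 0 were higher and 18 lower (median -1.36). Of all tested genes, 42.1% were higher and 24.5% lower in the first comparison, and 35.8% and 22.9% in the second. In double-negative against CD201-only cells 10 collagen chains were higher and 4 lower (median 0.13), beside 21.5% and 16.5% of all tested genes. Most chaperones were also higher there. COL1A1 averaged 305.3 FPKM in double-negative cells, 244.4 in CD201-only cells and 1691 in double-positive cells, and COL1A2 460.4, 427.2 and 1871. COL5A3, a type V chain, had the largest fall (-2.82 and -4.14). COL11A1 rose in double-negative cells (0.34, adjusted p = 0.000105). Summed over the 18 chains the level was 2515 and 2521 FPKM in double-negative, 2213 and 2171 in CD201-only and 8391 and 8175 in double-positive libraries. The 10 chaperones summed to 3400 and 3380, 3083 and 3110, and 2678 and 2698 FPKM, so their sum was lowest where the collagen sum was highest. Double-negative over double-positive cells gave a ratio of 1.261 for the chaperone sum, or 1.159 after median-ratio rescaling.

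Within a library, the chaperone transcripts stood in a different proportion to collagen. The 10 chaperones were 1.352 and 1.341 times the collagen sum in double-negative, 1.393 and 1.432 in CD201-only and 0.3191 and 0.33 in double-positive libraries. SERPINH1 was 0.9511 and 0.9436, 1.104 and 1.101, and 0.184 and 0.1819 times the sum of COL1A1 and COL1A2. A scaling factor for each library leaves these ratios unchanged. The double-positive libraries were far below the other 4 in both.

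**Figure D3:**
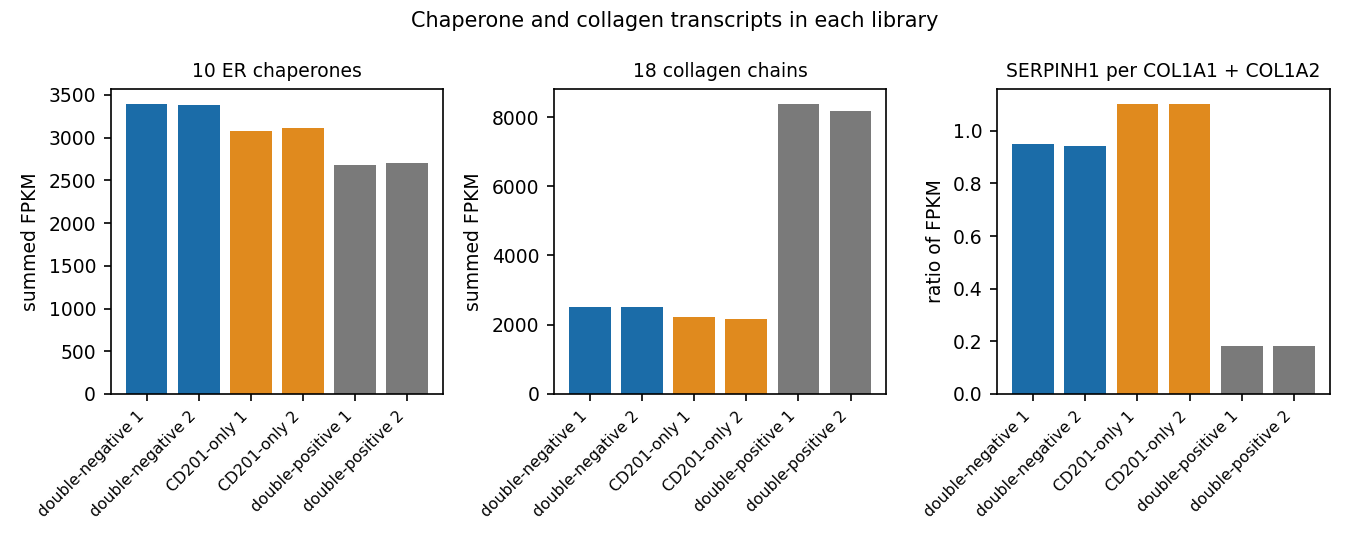
Summed FPKM of the 10 ER chaperones (left) and of 18 collagen chains (middle), and SERPINH1 as a ratio to COL1A1 plus COL1A2 (right), with 1 bar for each library. The chaperone sum is between 2678 and 3400 FPKM throughout, the collagen sum is 8391 and 8175 in the double-positive libraries, and the ratio there is 0.184 and 0.1819.

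Of the enzymes that modify collagen in the ER, more were called lower than higher against double-positive cells. Of 20 genes, 19 were tested, and 3 were higher and 10 lower in double-negative, and 1 higher and 13 lower in CD201-only, against double-positive cells. The counts as deposited are to be read beside the shares of all tested genes given above. After median-ratio rescaling the counts were 1 and 12 in double-negative and 1 and 16 in CD201-only cells. The prolyl 4-hydroxylase subunits P4HA3 (-1.77 and -2.76) and P4HA2 (-1.39 and -0.96), which stabilise the triple helix, fell most. P4HB, the isomerase that is also the shared subunit of that enzyme, averaged 555.1, 495.5 and 514.3 FPKM, with the groups in the order used above. It rose by 0.11 in double-negative cells (adjusted p = 0.00167), which reversed to -0.012 under median-ratio rescaling (adjusted p = 0.627). The 0.05 fall of P4HB in CD201-only cells (adjusted p = 0.0428) was not called when any single library was left out (adjusted p = 0.0607 to 0.143). PPIB (cyclophilin B), a prolyl isomerase for collagen, averaged 803.9, 790.2 and 806.5 FPKM, a change of -0.01 in double-negative cells (95% interval -0.06 to 0.05, adjusted p = 0.86). Under median-ratio rescaling PPIB was called lower by 0.13 (adjusted p = 0.00241).

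Other genes of the secretory pathway are given as counts. As deposited, they are to be read beside 42.1% higher and 24.5% lower of all tested genes in double-negative against double-positive cells. For CD201-only against double-positive cells the shares are 35.8% and 22.9%. After median-ratio rescaling, 3649 of the 12210 tested genes were higher and 3899 lower in double-negative cells. In CD201-only cells 3228 were then higher and 3481 lower. Of 11 co-chaperones, 8 were higher and 2 lower in double-negative, and 5 higher and 3 lower in CD201-only, against double-positive cells. After median-ratio rescaling they were 5 and 2, and 3 and 3. HYOU1 (GRP170), the nucleotide exchange factor of BiP, rose by 0.78 and 0.52, and DNAJB11 (ERdj3), another BiP partner, by 0.51 and 0.20. SIL1, also an exchange factor for BiP, fell by 0.81 and 0.67, so the pair of exchange factors went in opposite directions. DNAJC3 rose by 0.40 in double-negative cells. HYOU1 was among the genes with the ERSE-II letters in its window.

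Of 20 other disulfide isomerases and oxidases, 19 were tested, and 9 were higher and 3 lower in double-negative and 3 higher and 8 lower in CD201-only cells. After median-ratio rescaling the counts in double-negative cells were 5 and 6. QSOX1, a sulfhydryl oxidase, fell by 0.69 and 1.28. The membrane isomerases TMX1 and TMX4 set the double-negative cells apart from the CD201-only cells, by 0.81 and 1.09. Of 13 genes of the calnexin cycle, 12 were tested, and 7 were higher and 2 lower in double-negative and 3 higher and 5 lower in CD201-only cells. After median-ratio rescaling they were 5 and 4 in double-negative and 1 and 5 in CD201-only cells. UGGT1, which sends unfolded glycoproteins back to CANX and CALR, rose by 0.33 in double-negative cells, and MAN1B1, a mannosidase that marks them for disposal, fell by 0.51 and 0.55.

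Of 16 sensors and transcription factors of the unfolded protein response, 8 were higher and 6 lower in double-negative, and 4 higher and 8 lower in CD201-only, against double-positive cells, with medians of 0.08 and -0.22. After median-ratio rescaling they were 4 and 6, and 1 and 10. XBP1, a main transcription factor of the response whose window holds the ERSE letters, averaged 65.88, 54.51 and 50.89 FPKM and rose by 0.37 in double-negative cells (adjusted p = 2.67e-05). Its 0.10 rise in CD201-only cells (adjusted p = 0.0187) was 0.02 under median-ratio rescaling (adjusted p = 0.681), and was lost without CD201-only replicate 1 (adjusted p = 0.0751) or 2 (adjusted p = 0.068). CREB3L1 (OASIS), a factor known to drive collagen genes in bone, fell by 1.61 and 1.20, and ATF6B by 0.77 and 0.75. The table gives 1 value per gene, so the spliced form of XBP1 was not measured here.

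Of 18 genes of ER-associated degradation, 7 were higher and 4 lower in double-negative and 2 higher and 4 lower in CD201-only cells, and after median-ratio rescaling 2 and 6, and 2 and 7. OS9, a lectin of this pathway, fell by 0.43 and 0.59, and HM13, a signal peptide peptidase, by 0.53 and 0.40. Of 32 genes of ER entry and N-glycosylation, 21 were higher and 4 lower in double-negative and 9 higher and 5 lower in CD201-only cells, and after median-ratio rescaling 12 and 6, and 4 and 8. SEC61A2, a translocon subunit, rose by 0.76 and 0.50. Of 25 genes of ER exit and retrieval, 10 were higher and 6 lower in double-negative and 3 higher and 8 lower in CD201-only cells, and after median-ratio rescaling 5 and 12, and 1 and 13. KDELR3, a receptor that returns chaperones to the ER, fell by 0.88 and 1.15, while SEC23B, a coat subunit of ER exit vesicles, rose by 0.53 and 0.20.

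Most chaperones listed outside the ER were called higher in the same comparisons. Of 26 cytosolic chaperones, 19 were higher and 5 lower in double-negative and 20 higher and 3 lower in CD201-only cells (medians 0.50 and 0.36). After median-ratio rescaling they were 19 and 6, and 18 and 4. Of all tested genes, 42.1% were higher and 24.5% lower in double-negative cells as deposited. In CD201-only cells the shares were 35.8% and 22.9%. The chaperonin subunit TCP1 rose by 0.73 and 0.49 and HSP90AA1, the stress-inducible cytosolic Hsp90, by 0.60 and 0.51, while HSPB1, a small heat shock protein, fell by 0.73 and 0.69. Of 7 mitochondrial chaperones all were higher in both comparisons as deposited, and 5 and 7 after median-ratio rescaling, with HSPD1 at 0.87 and 0.74. HSPA5 was 1.177 and 1.19 times its cytosolic counterpart HSPA8 in double-negative, 1.18 and 1.155 in CD201-only and 1.095 and 1.038 in double-positive libraries. HSP90B1 was 0.3947 and 0.3875 times the cytosolic HSP90AB1 in double-negative, 0.3143 and 0.3166 in CD201-only and 0.3447 and 0.3495 in double-positive libraries, so for this pair CD201-only cells were lowest. HSPA8 has many near-identical pseudogenes, so its level is uncertain.

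**Figure D4:**
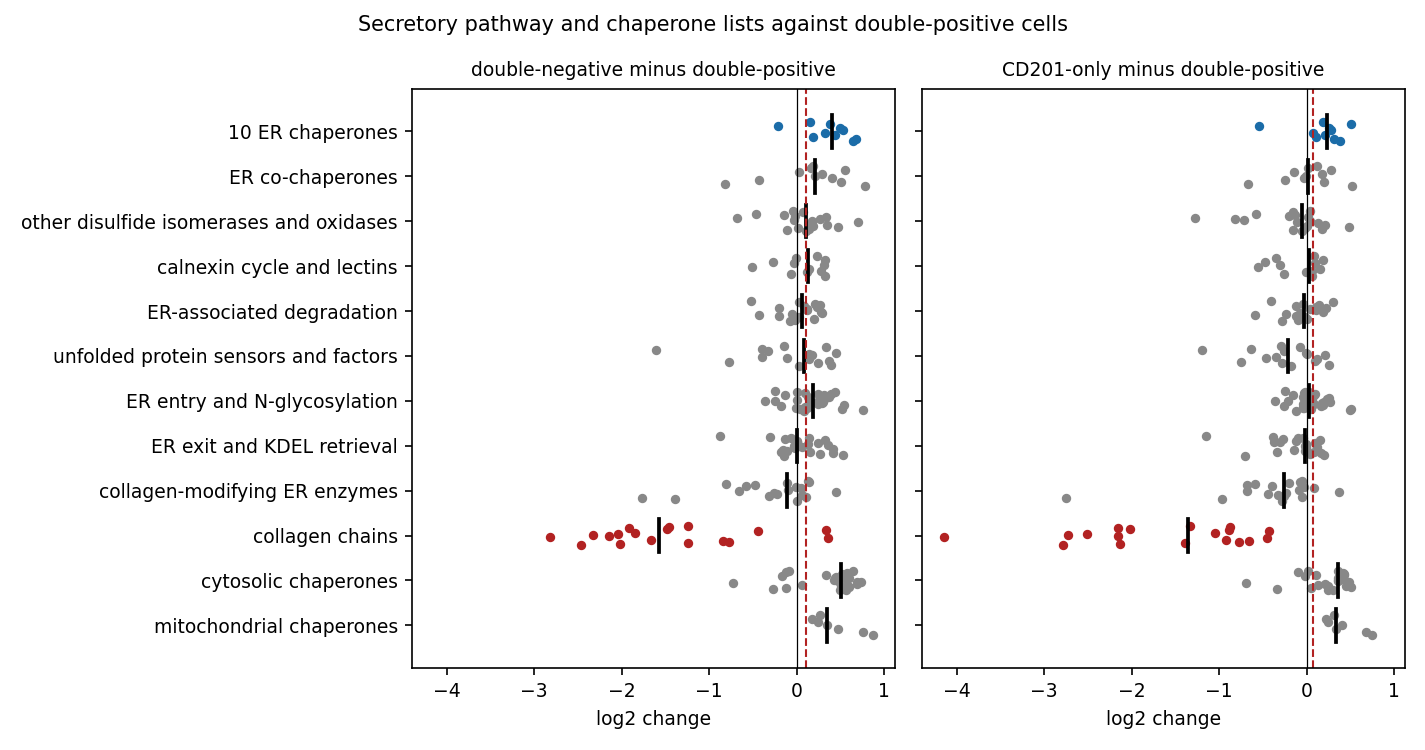
limma log2 changes of each tested gene in 12 lists, against double-positive cells, for double-negative (left) and CD201-only cells (right). Each point is 1 gene, the black bar is the list median, and the dashed line is the median of all tested genes. The 10 ER chaperones (medians 0.41 and 0.23) and the cytosolic chaperones (0.50 and 0.36) lie to the right, and the collagen chains (-1.58 and -1.36) to the left.

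Among 6138 other genes averaging 10 FPKM or more, those whose centred log2 values lay nearest to HSPA5 over the 6 libraries were AHSA1, a cochaperone of cytosolic Hsp90 (root mean square difference 0.0166), IDH3A, a mitochondrial dehydrogenase subunit (0.0202), and PREP, a peptidase (0.0226). Nearest to SERPINH1 were TRMT112, a methyltransferase partner (0.0101), ATP5MC2, an ATP synthase subunit (0.0127), and WDR6 (0.0139). None of these is a collagen gene, which the opposite changes of most collagen chains against double-positive cells already implied.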

How the data were processed

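Poly-A RNA of 6 sorted BJ libraries, 2 for each of 3 groups, was analysed. The authors deposited 1 table of FPKM values, made with STAR and Cuffnorm on hg19 or GRCh37 per the submitters' processing notes. The sources used here give no versions, options, annotation or Cuffnorm scaling. Groups came from the labels, 0 columns were left unassigned and 0 library pairs were identical. Values were taken as log2(FPKM + 1), which understates changes of low genes. Genes averaging 1 FPKM or more were fitted in limma 3.58.1 (R 4.3.3) with a variance trend and 1 coefficient per group over all 6 libraries, with 3 residual and 3.95 prior degrees of freedom. P-values were adjusted by Benjamini-Hochberg over all 12210 genes and called under 0.05. Intervals are 95%. The fit was tested on simulated data. Promoters came from RefSeq (GRCh38.p14), and no coordinates of the deposited table were used. Python 3.11.15, pandas 2.3.3, numpy 2.4.6 and matplotlib 3.10.9 were used.

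The 10 members and the other lists were chosen with earlier results of these data known, and the motifs after values were seen. The lists share P4HB. Named genes are the members, ANPEP, PROCR, COL1A1, COL1A2, P4HB, PPIB and XBP1, up to 2 called genes with the largest change per list and comparison with at least 5 FPKM in the higher group, and the 3 genes nearest in pattern to HSPA5 and SERPINH1. Marker genes, ERN1, EIF2AK3, SEC61A1, HSPA8, HSP90B2P and PDIA3P1 were named after their values were seen. Alternatives were a pseudocount of 0.1, no filter or a mean of at least 5 FPKM, median-ratio rescaling, quantile normalization, no trend, only the 4 libraries compared, a replicate block and leaving out each library.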

Additional observations from a re-analysis of the deposited data

How the results depend on the processing

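Over the 10 chaperones and 3 comparisons, 392 alternative values kept their side of the threshold, 11 lost a call and 14 gained one, and 0 of the chaperones' calls reversed. Calls lost or gained were those of SERPINH1, CALR, PDIA3, DNAJB9 and SDF2L1. The count of chaperones called higher in double-negative against double-positive cells was 9, or 8 under either rescaling. The count called lower, 0, became 1 under median-ratio rescaling and ran from 0 to 1 when single libraries were left out. In CD201-only against double-positive cells the 1 lower call became 0 with a mean of at least 5 FPKM, since DNAJB9 was then not tested. In double-negative against CD201-only cells the count called lower, 0, became 1 with that filter, under both rescalings and with only the 4 libraries compared, and ran from 0 to 1 when single libraries were left out. There, leaving out single libraries gave 2861 to 4872 genes called in all, 1559 to 2787 higher and 1302 to 2085 lower. P4HB reversed to -0.012 under median-ratio rescaling. With 2 libraries a group, leaving one out assumes that the lone library varies like the others.

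Replicate differences correlated between groups by -0.073 to 0.117. Such low values cannot tell whether the replicate numbers pair the libraries. With the replicate number as a block, 9, 9 and 7 chaperones were called, beside 8110, 7189 and 4590 of all 12210 tested genes. Absolute depth is unknown, so what it limits was not measured.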

Other observations

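The ERSE letters were in windows of 25 genes. Of the 17 in the table that are not among the 10 chaperones, 10 were tested, and 1 was called higher and 2 lower in double-negative against double-positive cells, with a median log2 change of -0.04. After median-ratio rescaling the counts were 1 and 5. As deposited, 42.1% of all tested genes were called higher and 24.5% lower in this comparison. SERP1, which stabilises the translocon under stress, averaged 69.32 FPKM in double-negative and 70.57 in double-positive cells (-0.03, 95% interval -0.13 to 0.08, adjusted p = 0.625). CRELD2, a stress-induced ER isomerase, averaged 55.37 and 56.88 FPKM (-0.04, 95% interval -0.13 to 0.05, adjusted p = 0.382). FICD, which modifies BiP, averaged 4.29 and 4.404 FPKM. Of 12 tested genes with ERSE-II outside the 10 chaperones, 9 were higher and 2 lower in double-negative against double-positive cells (median 0.29), and 7 and 2 after median-ratio rescaling. Among them, HERPUD1, a stress-induced gene of ER-associated degradation, fell from 33.58 to 29.04 FPKM in double-negative cells, while HYOU1 rose from 71.48 to 123.2 FPKM. Of the ERSE genes tested outside the 10, XBP1 was the only one called higher in this comparison.

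DDIT3 (CHOP), a factor induced by prolonged ER stress, averaged 14.66, 11.31 and 15.88 FPKM, listed from double-negative through CD201-only to double-positive cells, and ATF4 413.1, 407.5 and 375.8. MIA3 (TANGO1), which loads collagen into vesicles at ER exit sites, averaged 11.21, 11.32 and 11.51 FPKM, with a change of -0.03 in double-negative against double-positive cells (95% interval -0.16 to 0.09, adjusted p = 0.594). FKBP10, a prolyl isomerase for collagen, averaged 168.7, 197.2 and 297.0 FPKM. These genes were named after their values were seen.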
